A study of Mus musculus with 2 samples.

Results

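The miR-191 and miR-425 cluster comprises 4 mature miRNAs, the 5p and 3p arms of 2 neighbouring hairpins on mouse chromosome 9. Its members were chosen by name (mmu-miR-191-5p, mmu-miR-191-3p, mmu-miR-425-5p and mmu-miR-425-3p, written without the species prefix from here on). All 4 were listed in both libraries, of 1477 miRNA names in all. miRNA reads were counted in RNA pulled down on streptavidin from keratinocytes cultured from mouse skin in a low-calcium medium. The cells were given exogenous expression of Dsp-BirA, a fusion of the desmosomal plaque protein desmoplakin with a biotin ligase, and were treated with biotin. The design was meant to label proteins at the plaque, Argonautes included, and no value here measures that labelling. Both libraries, numbered 1 and 2 in the labels, share this genotype and treatment, and no other group was analysed here. The labels do not give the promoter of the fusion, say whether the cells are a clone, or say whether the libraries came from separate cultures, so the spread between them may be technical.

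A miRNA gene is transcribed as a hairpin, from which Drosha and Dicer cut a duplex of both arms. An Argonaute protein keeps one arm as the guide and usually discards the other, and the guide finds target RNAs mainly through its seed, bases 2 to 8. The hairpins of miR-191 and miR-425 are known to lie in an intron of Dalrd3, whose protein takes part in the methylation of arginine tRNAs, and are described as made from one transcript, which the tables used here do not test. miR-191-5p is present in many tissues and is often used to normalise miRNA measurements, and in human keratinocytes it has been linked to senescence.

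In the RefSeq tables of the GRCm38.p6 assembly, Mir191 spans chr9:108568319-108568392 and Mir425 spans chr9:108568777-108568861, both on the + strand. Both hairpins lie inside the span of Dalrd3 (chr9:108567484-108572773), with 384 bases between them, and the exons of Dalrd3 were not analysed here. The only start site listed for Dalrd3 in the promoter table is at 108569892, which is 1031 bases beyond the end of Mir425, so these hairpins belong to the part of the gene's span before that site. All 4 mature sequences matched the RefSeq miRNA table, and each had a single locus. The hairpins are shown because the counts below divide over their arms, which are in capitals, 5p before 3p.
Mir191: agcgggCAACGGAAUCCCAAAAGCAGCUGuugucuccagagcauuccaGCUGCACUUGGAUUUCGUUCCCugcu
Mir425: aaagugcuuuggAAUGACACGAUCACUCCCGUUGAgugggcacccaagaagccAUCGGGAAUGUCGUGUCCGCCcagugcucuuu

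The mature arms are shown with the seed in capitals, because the seeds of the 4 arms all differ.
miR-191-5p: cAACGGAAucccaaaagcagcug
miR-191-3p: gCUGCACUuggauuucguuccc
miR-425-5p: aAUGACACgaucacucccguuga
miR-425-3p: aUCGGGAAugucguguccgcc
A target heptamer complementary to the seed reads UUCCGUU for miR-191-5p and GUGUCAU for miR-425-5p. Of the mature sequences in the RefSeq table, 1 other shares a seed with a member, miR-489-3p, which has the seed of miR-425-5p.
miR-489-3p: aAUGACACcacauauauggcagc
Beyond the seed, miR-489-3p matches miR-425-5p at 4 of 15 positions. miR-489-3p was listed in neither table, and 0 counts allow a level of up to 3 counts, which is 0.794 CPM in the first library and 0.728 CPM in the second. Of the names with a RefSeq sequence, only miR-425-5p thus had counts with this seed.

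Counts were scaled to CPM, counts per 1000000 miRNA counts of the same library. These totals were 3776893 in replicate 1 and 4122955 in replicate 2. As a check of the labelled cell type, all of 7 listed epithelial miRNAs were present, with 105854 and 106177 CPM in total. In contrast, 5 blood miRNAs summed to 6.09 and 11.9 CPM and 5 fibroblast miRNAs to 24.9 and 101.1 CPM. Most of the fibroblast sum of replicate 2 was miR-214-3p, with 6.88 CPM in replicate 1 and 88.3 CPM in replicate 2. The other fibroblast names had few counts and went both ways. In replicates 1 and 2, miR-199a-5p had 0 and 6 counts and miR-199a-3p had 35 and 31. Likewise, miR-143-3p had 10 and 0 counts and miR-145a-5p had 23 and 16. The melanocyte marker miR-211-5p had 0 and 5 counts, and the endothelial marker miR-126a-3p had 1308 and 1093 counts, or 346.3 and 265.1 CPM. This marker was thus above both the blood and the fibroblast sums and above miR-425-3p in mean CPM, and its part in the counts of the cluster was not tested. Intervals given for single libraries cover the counting error of reads only, not the spread between libraries. Reads of PCR products are not independent molecules, so these intervals may be too narrow. With 2 libraries of 1 group, no test between conditions was possible.

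The cluster was a minor part of the recovered miRNAs, and miR-425-5p, not miR-191-5p, was its most abundant arm. The 4 arms together took 0.143% of the miRNA counts of replicate 1 (5410 counts, 0.139% to 0.147% by Wilson's 95% interval) and 0.154% of those of replicate 2 (6357 counts, 0.150% to 0.158%), or 0.149% ± 0.00774 (SD, n = 2). Of the cluster's own counts, miR-425-5p made up 54.2% ± 3.35, miR-191-5p 28.5% ± 1.25, miR-425-3p 15.9% ± 1.94 and miR-191-3p 1.44% ± 0.160 (SD, n = 2).

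miR-425-5p, the main arm of its hairpin, had 3058 counts in replicate 1 and 3292 in replicate 2. These are 809.7 and 798.5 CPM, with a mean of 804.1 ± 7.92 CPM (SD, n = 2), and ranks of 106 and 105. The libraries were nearly level for this arm.

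miR-191-5p, the main arm of the other hairpin, had 1496 and 1870 counts. These are 396.1 and 453.6 CPM, with a mean of 424.8 ± 40.6 CPM and ranks of 136 and 127. Replicate 2 was the higher, and both libraries lay below both values of miR-425-5p.

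miR-425-3p, the lesser arm of miR-425, had 784 and 1096 counts. These are 207.6 and 265.8 CPM, with a mean of 236.7 ± 41.2 CPM and ranks of 167 and 157. This lesser arm lay below the main arm of the neighbouring hairpin in both libraries: miR-191-5p had 1.81 ± 0.143 times the counts of miR-425-3p (SD, n = 2).

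miR-191-3p, the lesser arm of miR-191, had 72 and 99 counts, or 19.1 CPM (Wilson 95% interval 15.1 to 24.0) and 24.0 CPM (19.7 to 29.2). Its mean of 21.5 ± 3.50 CPM put it at rank 378. The order from miR-425-5p through miR-191-5p and miR-425-3p to miR-191-3p held in both libraries, and no neighbours in that order overlapped between the libraries.

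**Figure D1:**
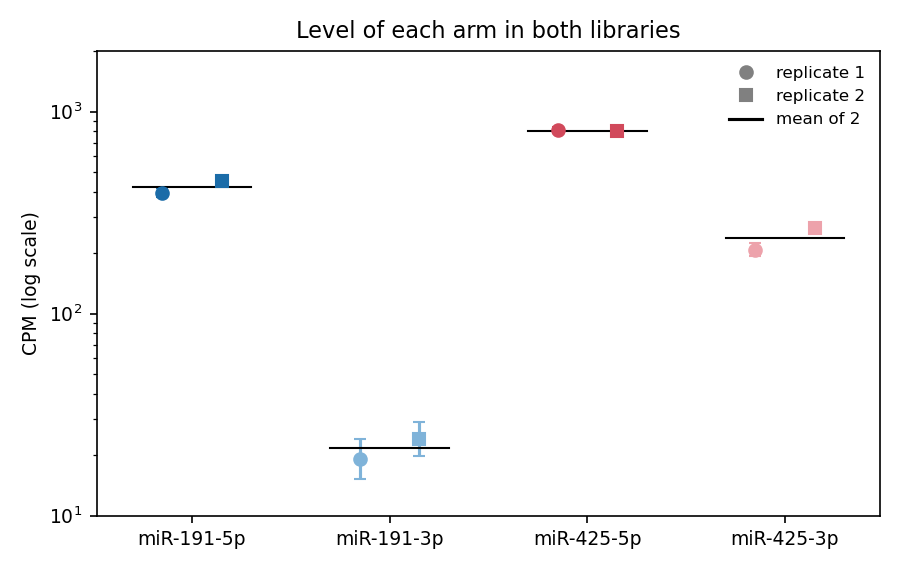
CPM on a log axis for each of the 4 arms, with a circle for replicate 1, a square for replicate 2, a bar for their mean and whiskers for the Wilson 95% interval of each library (counting error). miR-425-5p lies highest at 809.7 and 798.5 CPM and miR-191-3p lowest at 19.1 and 24.0 CPM, with no overlap between the arms.

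Summed over both arms, miR-425 exceeded miR-191 in both libraries. miR-425 had 1017 CPM in replicate 1 and 1064 in replicate 2, and miR-191 had 415.2 and 477.6 CPM. The ratio of miR-425 to miR-191 was 2.45 in replicate 1 (exact 95% interval 2.31 to 2.60) and 2.23 in replicate 2 (2.11 to 2.35), with a mean of 2.34 ± 0.157 (SD, n = 2). Between the 5p arms alone the ratio was 1.90 ± 0.201, and between the 3p arms 10.98 ± 0.129 (SD, n = 2). Read as miR-191 over miR-425, the ratio was 0.428 ± 0.0287 with both arms and 0.529 with the 5p arms. All of these ratios lay further from 1 than the spread between the libraries, but the smallest p-value of an exact sign-flip test on 2 values is 0.5. They are ratios of reads, and how evenly the protocol captured each arm was not tested.

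Unequal counts were common among pairs of hairpins from one cluster. A list of 16 other such pairs had more-over-less ratios from 1.08 (miR-106b over miR-93, in an intron of Mcm7) to 16.5 (miR-29b over miR-29c), with a median of 2.55. The hairpins miR-182, miR-200b, miR-93 and miR-29b are each in more than 1 pair, so the 16 ratios are not from 16 separate clusters. The 2.34 of miR-425 over miR-191 was seventh from the smallest, between miR-23b over miR-27b (2.17 ± 0.0821) and miR-222 over miR-221 (2.51 ± 0.00949). In 4 of the 16 pairs (miR-29b with miR-29a and with miR-29c, miR-30c with miR-30e, miR-365 with miR-193a) a name comes from more than 1 gene, and its count is then a sum over genes. Over the other 12 pairs the median was 2.52, and 5 of the 12 had a smaller ratio than miR-425 over miR-191. The largest ratio of the 12 was 7.04 ± 6.24 (miR-132 over miR-212, with 2.63 in replicate 1 and 11.5 in replicate 2). It rests on few counts, since miR-212 had a mean of 13.0 CPM. The more abundant hairpin was the same in both libraries for all 16 pairs and for miR-425 and miR-191. The ratio of miR-425 to miR-191 fell by 0.14 on the log2 scale from replicate 1 to replicate 2, and 3 of the 16 pairs shifted further.

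**Figure D2:**
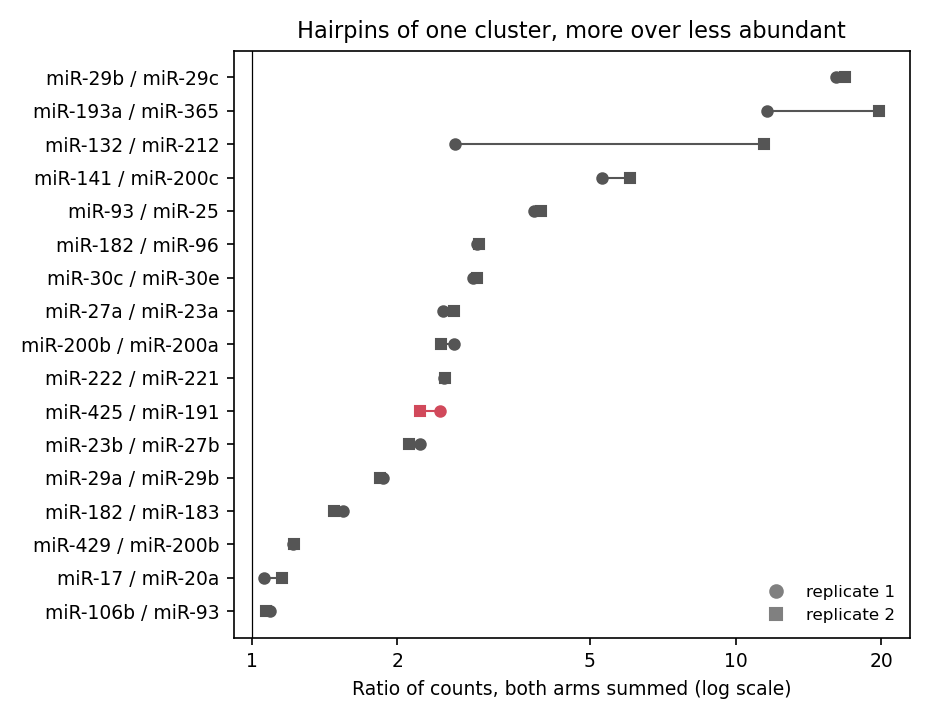
Ratio of the more to the less abundant hairpin, both arms summed, on a log axis for the 16 listed pairs and for miR-425 over miR-191 (red), with a circle for replicate 1 and a square for replicate 2. The miR-425 over miR-191 pair lies at 2.45 and 2.23, close to the median of 2.55 of the others.

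The hairpins also differed in arm use. miR-191 gave almost all of its reads from the 5p arm, with a share of 95.4% in replicate 1 (94.3% to 96.3%, Wilson 95% interval) and of 94.97% in replicate 2 (93.9% to 95.9%), or 95.2% ± 0.308 (SD, n = 2). miR-425 was less one-sided, with 79.6% (78.3% to 80.8%) and 75.0% (73.7% to 76.3%), or 77.3% ± 3.23. Per count of the 3p arm, there were 19.8 ± 1.34 counts of miR-191-5p and 3.45 ± 0.634 of miR-425-5p. Each 5p arm exceeded its 3p arm in both libraries in the exact two-sided binomial test against equal arms, with Benjamini-Hochberg adjustment over 164 hairpins. Each of the 164 had at least 100 counts per library and both a 5p and a 3p name listed under the same hairpin name. Hairpins with an unlisted arm, or with an arm named by gene copy, are therefore left out. The larger adjusted p-value for miR-425 was 1.31e-251, and those for miR-191 were too small for the software to write. Such a call is the common case, since 58.5% of the 164 hairpins passed in the 5p direction in both libraries.

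The lesser arm of miR-425 held a larger share than that of most of the compared hairpins of like abundance. Averaged over the libraries, the lesser arm held 22.7% for miR-425 and 4.81% for miR-191, against a median of 5.44% over the 164 hairpins. A larger lesser arm was found in 35 of them for miR-425 and in 88 for miR-191. Among the 37 other hairpins within 2-fold of the counts of miR-425, the median was 2.76%, and 5 had a larger lesser arm. Among the 33 within 2-fold of miR-191, the median was 7.16%, and 18 had a larger one. Hairpins whose lesser arm was not listed are absent from these medians and counts, so the medians over all hairpins may differ. These comparisons are descriptions without a test.

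Arm use of miR-425 shifted between the libraries, and that of miR-191 did not pass the test. The 5p share of miR-425 fell by 4.57 percentage points from replicate 1 to replicate 2 (Fisher's exact test, two-sided, adjusted p = 2.63e-06 over 164 hairpins). For miR-191 the change was -0.44 points (Fisher's exact test, adjusted p = 0.619). This test was added after the data were seen, compares 2 libraries and not conditions, and called 68.3% of the 164 hairpins. The median absolute change was 0.681 points among the 37 hairpins of like abundance to miR-425, of which 4 moved further.

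**Figure D3:**
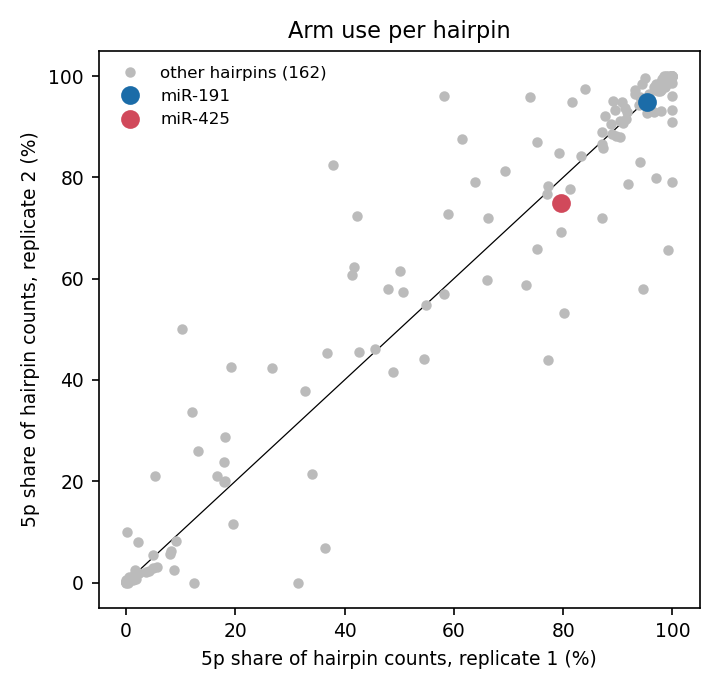
The 5p share of each hairpin's counts (%) in replicate 1 against replicate 2, for 164 hairpins with both arms listed and at least 100 counts in each library, and a line of equality. miR-191 (blue) sits at 95.4% and 94.97% among hairpins with nearly all reads from the 5p arm, and miR-425 (red) at 79.6% and 75.0%, just below the line.

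The sequences of the arms were set beside these shares. Argonautes are known to favour the arm whose 5′ end is less firmly paired and guides that begin with U or A. In the lowest-energy fold of Mir191 (-35.0 kcal/mol), the first 4 bases of the 5p arm held 1 G-C pair and those of the 3p arm held 3. Of these 4 bases, 3 were paired at the 5p end and 4 at the 3p end. In the fold of Mir425 (-31.7 kcal/mol), the numbers of G-C pairs were 1 and 2. There, 1 base of 4 was paired at the 5p end and 4 of 4 at the 3p end. The more abundant arm had fewer G-C pairs at its 5′ end in both hairpins. The same held in 49 of the 69 hairpins (71.0%) whose ends differed in this number, among 107 folded. Whether end pairing or the first base set the arm shares of miR-191 and miR-425 was not tested. Both arms of miR-425 begin with A, whereas miR-191-5p begins with C and miR-191-3p with G. Of the names with a known sequence, those beginning with C were 21.0% of names and held 6.38% ± 0.136 of the counts, and those beginning with G were 13.0% of names and held 5.28% ± 0.372 (SD, n = 2). Names beginning with A were 25.4% of names with 24.1% ± 0.0782 of the counts, and names beginning with U were 40.6% with 64.2% ± 0.586, so that the share of counts exceeded the share of names for U and not for A. Of the 103 names with a sequence that were at or above the mean CPM of miR-191-5p, 58 begin with U, 18 with A, 17 with C and 10 with G.

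miR-191-5p stood low among miRNAs used as references. Of 11 other names often used to normalise miRNA measurements, 9 had a higher mean CPM than both miR-191-5p and miR-425-5p, and the median of the 11 was 4666 CPM. The highest was miR-16-5p, with 264.3 ± 27.6 times the counts of miR-191-5p and 138.9 ± 0.121 times those of miR-425-5p (SD, n = 2). The reference names below miR-191-5p were miR-423-5p with 277.0 ± 32.6 CPM and miR-361-5p with 228.2 ± 40.5 CPM. miR-361-5p was also the next name below miR-425-3p, and both were higher in replicate 2, by 0.36 on the log2 scale each.

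**Figure D4:**
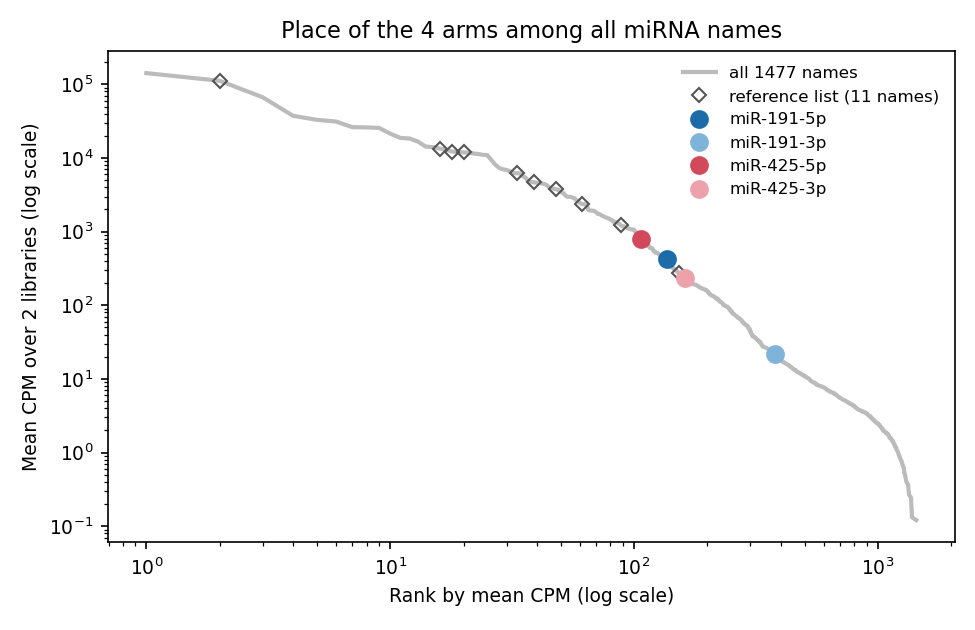
Mean CPM of 2 libraries against rank, both on log axes, for all miRNA names (line), with the 11 reference names as diamonds and the 4 arms as filled circles. The 4 arms lie at ranks 107, 136, 162 and 378, and 9 of the 11 reference names lie above all of them.

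The names nearest to each arm show its place in the profile. miR-425-5p lay between miR-140-3p (826.6 ± 61.4 CPM) and miR-3102-3p (800.9 ± 7.19 CPM), and its values overlapped with both. By distance in log2(CPM + 1) over the 2 libraries, miR-3102-3p was the most like it (0.0082), followed by miR-140-3p (0.107) and miR-297a-5p (0.180). miR-191-5p lay between miR-297c-5p (424.8 ± 4.66 CPM) and miR-331-3p (365.5 ± 71.3 CPM), again with overlap. The most like it were miR-503-5p (0.116), miR-297c-5p (0.154) and miR-29c-3p (0.198). The nearest names to miR-425-3p were miR-106a-5p (238.9 ± 6.57 CPM) and miR-361-5p, and those to miR-191-3p were miR-467h (21.6 ± 0.0880 CPM) and miR-669e-3p (21.5 ± 8.14 CPM), all within the spread.

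No other miRNA gene lies close to the cluster in the RefSeq table. The nearest miRNA genes are Mir7088, 486735 bases before Mir191, and Mir711, 401060 bases after Mir425. miR-7088-5p had 65 and 49 counts and miR-7088-3p 28 and 12, while miR-711 was listed in neither table.

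Each arm was also compared between the libraries. With 2 libraries of 1 group, agreement does not show that an arm is stable across conditions, so its use as a reference was not tested. Over 1002 names averaging 10 or more counts, an exact two-sided binomial test asked whether a name's reads were divided in proportion to the totals. It called 70.6% of the names at an adjusted p-value of 0.05 (Benjamini-Hochberg), so a call means only that the libraries differed by more than the counting error of reads. miR-425-5p did not pass, with a log2 ratio of replicate 2 over replicate 1 of -0.02 (95% interval -0.09 to 0.05, adjusted p = 0.630 in the exact test). Of the 60 other names within 2-fold of its counts, 58 had a larger absolute ratio.

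miR-191-5p was higher in replicate 2, by 0.20 (0.10 to 0.29, adjusted p = 1.91e-04 in the exact test), or 1.15-fold. This was close to the median absolute ratio of 0.18 among the 62 names within 2-fold of its counts, 31 of which had a larger one. miR-425-3p was higher by 0.36 (0.22 to 0.49, exact test, adjusted p = 3.23e-07), or 1.28-fold, and 36 of 94 names of like counts had a larger absolute ratio. miR-191-3p had 0.33 (-0.12 to 0.79, exact test, adjusted p = 0.182), with 163 of 202 names of like counts further from 0. Of the 4 arms, 2 were called, both higher in replicate 2, where 36.2% of all names were called in that direction and 34.3% in the other. Dividing all counts by 20.7 left neither called (exact test, adjusted p = 1 for both). This divisor is the average ratio of variance to mean between the libraries over 746 names averaging 10 to 300 counts, a range below the counts of both called arms.

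Of the 11 reference names, 9 were called, 4 higher and 5 lower in replicate 2, with log2 ratios from -0.56 (miR-103-3p) to 0.36 (miR-361-5p) and a median absolute ratio of 0.07. For comparison, the median absolute ratio was 0.10 over the 159 names averaging 1000 or more counts. The absolute ratio of miR-191-5p was exceeded by 3 of the 11, and that of miR-425-5p by 9. The furthest of these ratios from 0, that of miR-103-3p, would change the value read for miR-191-5p against it: miR-103-3p had 14.0 times its counts in replicate 1 and 8.33 times in replicate 2. Its near-identical relative miR-107-3p, looked up after its values were seen, had 4644 and 10896 counts, and the sum of both names was 25620 and 26472. How reads were assigned between these names was not tested.

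**Figure D5:**
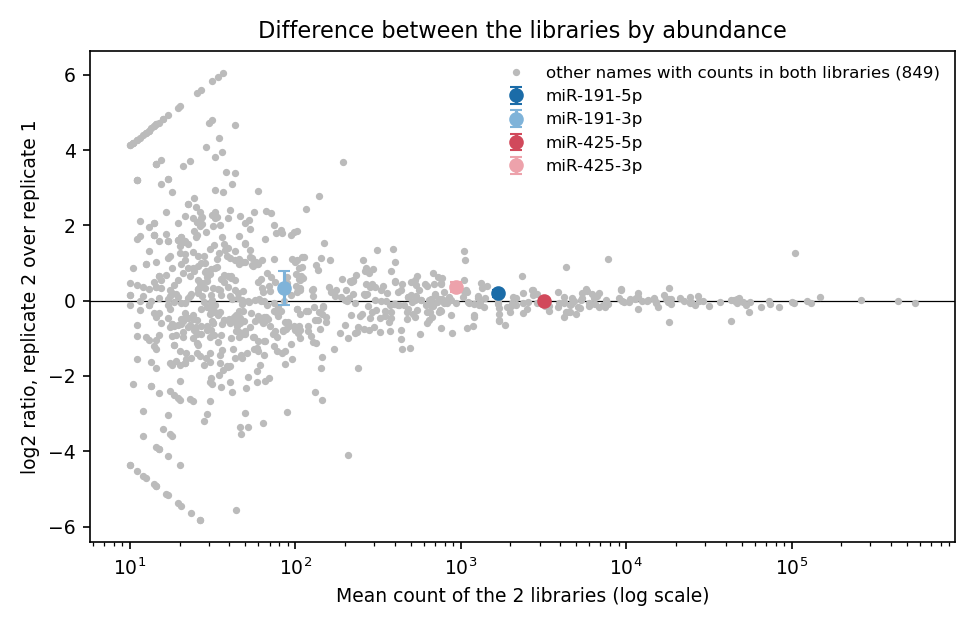
log2 ratio of replicate 2 over replicate 1 against the mean count (log axis), for names with counts in both libraries (grey) and the 4 arms with exact 95% intervals. miR-425-5p lies at -0.02 and miR-191-5p at 0.20, both inside the narrow band of abundant names, while miR-191-3p lies at 0.33 where the names spread widely.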

How the data were processed

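The authors deposited 1 table per library of mature miRNA names and raw whole-number counts. cutadapt, Novoalign and the build mm10 are named in the submitters' processing notes, without roles or versions. How PCR copies, multiply matching reads and reads in miRNA-target chimeras were counted is not given in the sources used here. Names missing from a table were set to 0, and rows that are not miRNA names (0.00265% and 0.000218% of the counts) were left out. CPM used the miRNA total of each library. Shares carry Wilson and ratios exact (Clopper-Pearson) 95% intervals, and means the SD of 2 libraries. A count model such as that of edgeR had no contrast to test in 1 group, so edgeR 4.0.16 and DESeq2 1.42.0 (R 4.3.3) supplied only alternative scalings. Hairpins were folded with RNAfold 2.7.2. Sequences came from RefSeq (GRCm38.p6), which held 1231 of the 1477 names (83.3%). Python 3.11.15, numpy 2.4.6, pandas 2.3.3, scipy 1.17.1 and matplotlib 3.10.9 were used. On simulated counts with 200 of 981 tested names changed 2-fold, the binomial test between libraries called 61.5% of them. On simulated arms it called all of 77 hairpins at an 80% to 20% split. Both simulations held counting error only, without the extra spread between the real libraries, so they do not give the recovery in the real counts.

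The rule that names the members uses no counts, but the members, the lists and the tests were chosen with earlier results of these data known. The rule for naming took the members, names sharing a seed, the nearest names by level (2 on each side) and by pattern (3), the reference list and the cluster pairs. Alternatives were other scalings, totals, count minimums, pseudocounts, 10% of the counts, counts divided by the variance-to-mean index, and leaving out each library.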

Additional observations from a re-analysis of the deposited data

Results flagged for a closer look

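Rows that are not miRNA names were outside every comparison. The name Cali_12 was listed with 99 counts in the table of replicate 1 and with 9 in that of replicate 2. These rows were noted only because they hold counts that no comparison uses.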

How the results depend on the processing

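Leaving miR-31-5p, the most abundant name, out of the total raised the share of the 4 arms to 0.173%, as a smaller total must. The ratio of miR-191 to miR-425 was 0.529 with the 5p arms alone in place of 0.428, since this leaves out the larger 3p arm of miR-425. In a single draw of 10% of the counts the 5p share of miR-191 was 95.6% ± 3.46, against 95.2% ± 0.308 with all counts (SD, n = 2). The number of names that differed between the libraries was 707, and it was 254 from a mean of 100 counts (fewer names tested), 441 with at least a 2-fold ratio also required, and 16 after division by the variance-to-mean index of names averaging 10 to 300 counts. That index comes from the same libraries, so a drop was built in, and miR-191-5p and miR-425-3p were no longer called under it. TMM and DESeq2 factors changed no direction or call of the 4 arms. Leaving out each library gave 0.143% to 0.154% for the share, 94.97% to 95.4% for the 5p share of miR-191, 75.0% to 79.6% for that of miR-425 and 0.408 to 0.449 for the ratio, each being the value of the other library. Depth limits miR-191-3p most, with 72 and 99 counts. No paired analysis was possible because both libraries belong to the same group.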
